A study of Mus musculus with 20 samples.

Results

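Basement membrane is the sheet of matrix that lies under endothelium and around each cardiomyocyte, and 9 genes of its core were followed here across a dose series of the dioxin TCDD in fetal mouse hearts. The genes were the collagen IV chains Col4a1 and Col4a2, the laminin chains Lama4, Lamb1, Lamb2 and Lamc1, the linkers Nid1 (nidogen) and Hspg2 (perlecan), and Sparc, a matrix protein that binds collagen. All probe sets that the platform annotation gives to these symbols were taken, which came to 12 of the 12422 probe sets compared, since Lama4, Lamb1 and Lamc1 have 2 each. The 9 genes stand among 8251 with a symbol of their own on the array.

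Laminin trimers, each of an alpha, a beta and a gamma chain, form a polymer at the cell surface, and collagen IV protomers form a network of their own. Nidogen and the heparan sulphate proteoglycan perlecan tie these networks together, and perlecan also holds growth factors. The α1 and α2 chains of collagen IV, encoded by Col4a1 and Col4a2, make up the protomer found in the vessel walls and muscle of most tissues, and loss of perlecan in mice is known to weaken the fetal heart wall.

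The labels describe 20 arrays of the Affymetrix MG-U74Av2 type, each with total RNA of whole fetal mouse hearts. Treatment was corn oil (8 control arrays) or TCDD at 1.5, 3 or 6 µg/kg (4 arrays each), by oral gavage on gestation day 14.5, and hearts were taken on day 17.5. The treatment day of array 1 at 1.5 µg/kg is written in another form in its label and was not used. The strain, and whether an array holds 1 heart, a litter or a pool, are not given in the sources used here, so p-values measure the spread between these arrays.

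The values were MAS5 signals, a linear brightness per probe set, scaled on each array to a trimmed mean of 500. Of all probe sets, 8097 passed a filter on dim signals (at or above the 40th percentile of the array on at least 4 arrays) and were tested together on the log2(signal + 32) scale, on which changes are given. Correlations between arrays of log2 signals ran from 0.941 to 0.981. Cardiomyocyte markers were bright in every group, with Tnnt2 (cardiac troponin T) at 15190 to 20810 over the 20 arrays. Cyp1a1, the classical target of the dioxin receptor, rose by 1.76, 2.12 and 2.93 on the log2 scale at 1.5, 3 and 6 µg/kg (limma, adjusted p = 0.00681, 0.000573 and 1.97e-06) on probe set 94715_at, while its other probe set, 161831_at, had changes of -0.13, -0.44 and 0.18. Cyp1b1 rose by 1.39, 1.45 and 2.04 on probe set 99979_at (limma adjusted p = 0.000174, 8.24e-05 and 1.49e-07), while its other probe set, 161368_r_at, did not pass the filter.

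Of the member probe sets, 10 of 12 passed the filter. At 1.5 µg/kg 1 of these 10, Hspg2, passed the limma test against controls after Benjamini-Hochberg adjustment at 0.05, where 0.21% of all probe sets did. The members were chosen with earlier results of these data known, so their count and that share are not an independent comparison. At 3 µg/kg 0 of 10 passed (background 0.0247%), with 1 at an unadjusted p under 0.05 (5.72% of all probe sets), which again was Hspg2. At 6 µg/kg 0 of 10 passed (background 0.0741%), with 0 at an unadjusted p under 0.05 (9.15% of all probe sets). The median change of the 10 was 0.03, -0.06 and 0.06 at the 3 doses, beside medians within 0.01 of 0 over all probe sets, and 5, 4 and 6 of the 10 lay above controls. Perlecan had the largest change of the 10 at 1.5 and at 3 µg/kg, and Lamc1, lower by 0.28 on the log2 scale without passing the test, the largest at 6 µg/kg.

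**Figure D1:**
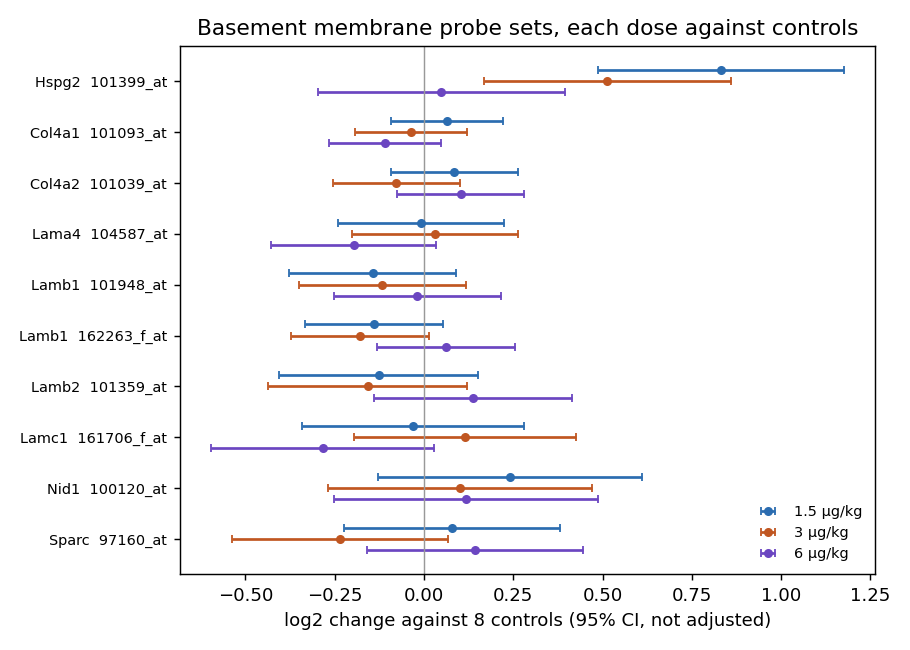
Log2 change of the 10 tested probe sets (rows) against the 8 controls at 1.5, 3 and 6 µg/kg TCDD, with 95% confidence intervals that are not adjusted for multiple tests. Hspg2 stands at 0.83, 0.51 and 0.05 from the lowest to the highest dose, while the other 9 probe sets lie between -0.28 and 0.24.

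Hspg2 encodes perlecan, the large heparan sulphate proteoglycan of basement membranes, and was measured by 1 probe set, 101399_at. Its control signals ran from 1611 to 2778 with a median of 2411, and their mean was 2304 ± 458 (SD, n = 8). The 1.5 µg/kg arrays read 4489, 5386, 3990 and 2780, a mean of 4161 ± 1087 (SD, n = 4). The first 3 stood far above every control, and the fourth was level with the highest control, so that the groups did not overlap only by the narrowest margin. This pattern, all 4 arrays above all 8 controls, was found in 1.06% of all probe sets.

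The 3 µg/kg arrays gave 2764, 3165, 3919 and 3224 (mean 3268 ± 479, SD, n = 4), 3 of them above every control and the lowest just within the control range. The 6 µg/kg arrays gave 2382, 2166, 3060 and 1899 (mean 2377 ± 496, SD, n = 4) and overlapped the controls almost fully, with 1 array above them. By group means, perlecan signal was highest at the lowest dose and near the control level at the highest dose, while Cyp1a1 on 94715_at had its largest change at the highest dose.

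**Figure D2:**
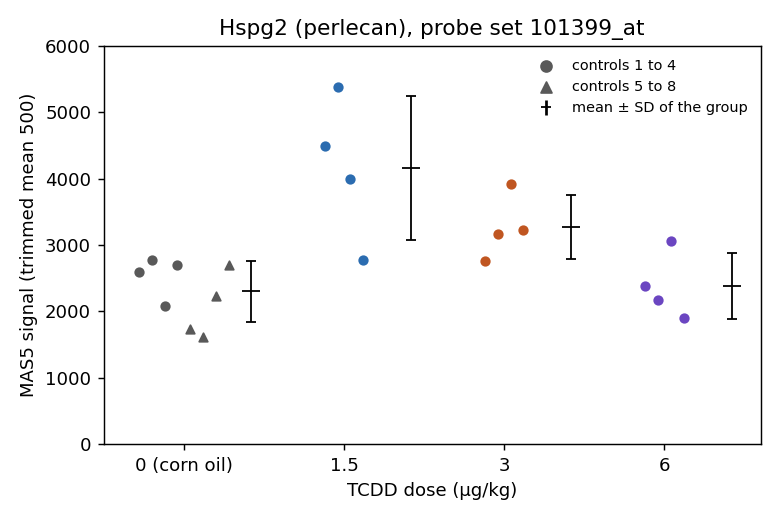
MAS5 signal of Hspg2 (vertical axis, from 0) on each of the 20 arrays by TCDD dose; circles in the control column are controls 1 to 4, triangles controls 5 to 8, and bars give the mean ± SD of each group. The 1.5 µg/kg arrays lie between 2780 and 5386 and the controls between 1611 and 2778.

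Against the controls, Hspg2 rose 1.78-fold at 1.5 µg/kg, a log2 change of 0.83 ± 0.17 (SE, 95% interval 0.49 to 1.18, limma adjusted p = 0.0320). At 3 µg/kg the log2 change was 0.51 (interval 0.17 to 0.86, adjusted p = 0.707), and at 6 µg/kg it was 0.05 (interval -0.30 to 0.39, adjusted p = 0.946). The call at 1.5 µg/kg was close to the threshold: without array 2 of that dose, its brightest, the change was 0.69 (adjusted p = 0.311), and with controls 1 to 4 alone it was 0.68 (adjusted p = 0.181). It was also lost without array 1 of that dose (0.78, adjusted p = 0.185) and without control 3, 5, 6 or 7, with changes of 0.81, 0.78, 0.76 and 0.83 (limma adjusted p = 0.0648, 0.0553, 0.0590 and 0.0521). Across the alternatives run the change at 1.5 µg/kg stayed between 0.68 and 1.01 while the adjusted p ran from 0.0110 to 0.311.

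The joint test of the 3 doses against controls gave Hspg2 an adjusted p of 0.0574, rank 27 of 8097, and 0 of the 10 member probe sets passed (background 0.185%). Without control 4 the joint adjusted p of Hspg2 was 0.0467 and without array 4 of 1.5 µg/kg 0.0168, both past the threshold. A straight line over dose with controls at 0 gave a slope of 0.0061 per µg/kg for Hspg2 (limma adjusted p = 0.986). For that line too 0 of 10 member probe sets passed (background 0.0618%), with 0 at an unadjusted p under 0.05 (7.22% of all probe sets).

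Between doses, Hspg2 was lower by 0.78 on the log2 scale at 6 than at 1.5 µg/kg (interval -1.18 to -0.38, adjusted p = 0.0647), a difference that did not pass. It passed without control 6 (-0.78, adjusted p = 0.0411) and without array 4 of 1.5 µg/kg (-0.96, limma adjusted p = 0.0275). Here 0 of 10 members were called against a background of 0.346%, and Hspg2 was the 1 at an unadjusted p under 0.05, where 15.6% of all probe sets were. The difference of 3 from 1.5 µg/kg was -0.32 (interval -0.72 to 0.08) and that of 6 from 3 µg/kg was -0.46 (interval -0.86 to -0.07, adjusted p = 0.352). These comparisons also called 0 of 10 members, beside backgrounds of 0% for 3 against 1.5 µg/kg and 0.0371% for 6 against 3 µg/kg. Unadjusted p-values under 0.05 were held by 0 members in the first and by 4 in the second, which were Hspg2, Lamc1, Lamb1 (162263_f_at) and Sparc. Over all probe sets these shares were 2.79% and 11.6%.

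With the 12 TCDD arrays fitted alone, Hspg2 fell by 0.17 on the log2 scale per µg/kg (SE 0.04, limma adjusted p = 0.0267). It was the 1 of 10 members called there, where 2.7% of all probe sets were, 71 of them rising and 148 falling with dose. The other 9 members had slopes between -0.07 and 0.06 in this fit, the smallest adjusted p being 0.204 for Lamb1 (162263_f_at).

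The controls carry 8 numbers while the design text gives 4 arrays per group, so controls 1 to 4 and controls 5 to 8 were also compared and used apart. Hspg2 averaged 2537 ± 312 (SD, n = 4) in controls 1 to 4, and controls 5 to 8 read 1740, 1611, 2232 and 2700. The sets differed by 0.31 on the log2 scale (interval -0.07 to 0.69, limma adjusted p = 0.450). Against controls 1 to 4 the Hspg2 changes at 1.5, 3 and 6 µg/kg were 0.68, 0.36 and -0.11, and against controls 5 to 8 they were 0.99, 0.67 and 0.20. The adjusted p at 1.5 µg/kg was 0.181 with the first set and 0.0110 with the second.

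Counts of called members against controls 1 to 4 were 0 of 10 at 1.5, 3 and 6 µg/kg, beside backgrounds of 0.0371%, 0.0494% and 2.31%. Unadjusted p-values under 0.05 were held by 1, 0 and 1 members, namely Hspg2 at 1.5 and Lama4 at 6 µg/kg, beside 11.1%, 6.27% and 17.6% of all probe sets. Against controls 5 to 8 the counts were 1 (Hspg2), 0 and 0 of 10, beside backgrounds of 1.89%, 0.371% and 0.0371%, with 2, 3 and 0 members at an unadjusted p under 0.05 (Hspg2 and Lamb1 on 162263_f_at at 1.5 µg/kg, and these with Lama4 at 3 µg/kg), beside 17.6%, 10.8% and 4.71% of all probe sets. Between the control sets 0 of 10 members were called, where 1.57% of all probe sets were, and 1 had an unadjusted p under 0.05, where 14.9% of all probe sets had.

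That 1 was Lama4 (chr10:38965515-39110188 of GRCm38.p6, the build of all positions here), the laminin α4 chain of vessel and muscle basement membranes, on probe set 104587_at. Controls 1 to 4 read 4308, 4394, 2977 and 3618, and controls 5 to 8 read 2939, 2886, 3030 and 2999. Controls 1, 2 and 4 thus stood above the whole second set, and the sets differed by 0.35 (interval 0.12 to 0.57, adjusted p = 0.113). Controls 1 and 2 also had the highest values of an RNA quality measure, the log2 ratio of the 3′ to the middle Actb control probe sets, at 1.18 and 1.33. Control 6 had 0.89 and array 4 of 6 µg/kg 1.02, and the other 16 arrays lay between 0.35 and 0.61. Its part in the Lama4 difference was not tested.

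**Figure D3:**
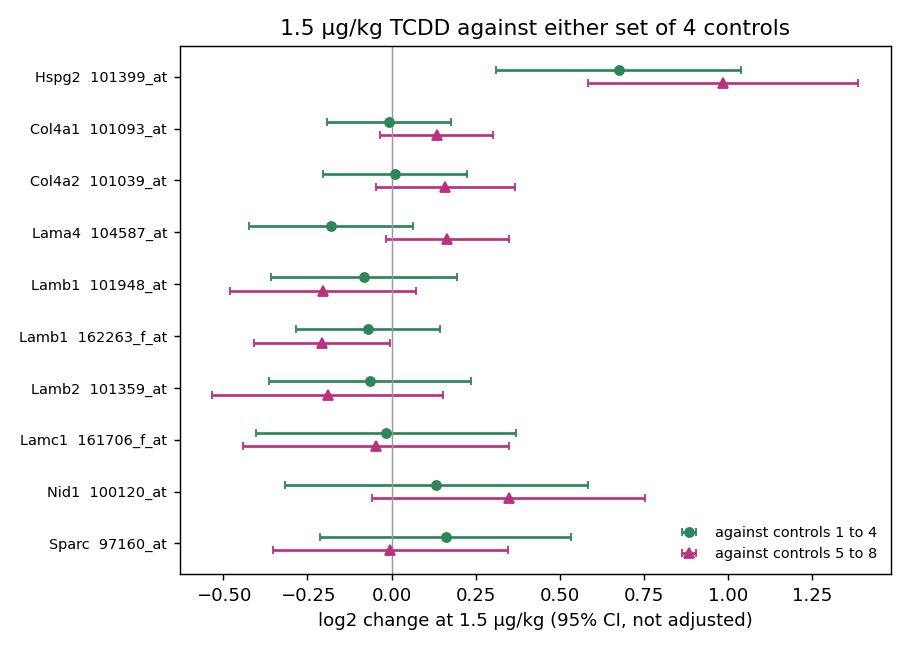
Log2 change at 1.5 µg/kg TCDD for the 10 tested probe sets (rows) against controls 1 to 4 (circles) and against controls 5 to 8 (triangles), with 95% confidence intervals that are not adjusted. Hspg2 lies at 0.68 and 0.99, and Lama4 changes sign from -0.18 to 0.17.

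The Hspg2 gene lies on chromosome 4 of GRCm38.p6 at chr4:137468751-137570630. The stretch just upstream of it, chr4:137468553-137468750 on the forward strand, is shown because Hspg2 was the called member and TCDD acts through the aryl hydrocarbon receptor, whose response element has the core GCGTG, which on the other strand reads CACGC, set here in capitals. The Sparc stretch, chr11:55420081-55420330 on the reverse strand, is shown as that of a member without the core. Both are RefSeq sequences given 5′ to 3′.
Hspg2: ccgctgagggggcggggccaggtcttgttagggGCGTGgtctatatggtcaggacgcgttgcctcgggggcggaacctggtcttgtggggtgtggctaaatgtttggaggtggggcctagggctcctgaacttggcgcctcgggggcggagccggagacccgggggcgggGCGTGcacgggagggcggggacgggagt
Sparc: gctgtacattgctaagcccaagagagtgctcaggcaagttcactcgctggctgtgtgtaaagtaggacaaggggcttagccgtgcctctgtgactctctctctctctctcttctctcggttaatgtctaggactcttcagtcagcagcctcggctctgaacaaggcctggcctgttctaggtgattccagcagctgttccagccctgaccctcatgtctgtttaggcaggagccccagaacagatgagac

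The window searched ran from 250 bases before to 50 after a RefSeq start and was at hand for 7 of the 9 genes. The Hspg2 window held 2 GCGTG cores, at -217 and -80 from the start at 137468803, and 2 or more were found in 11.1% of the 32851 windows of the table. It also held 5 GC boxes (GGGCGG or CCGCCC), a number reached by 2.71% of windows, none overlapping a core, and its GC content was 70.3%. Col4a1, Col4a2 and Lamb1, with 1 core each, shared that feature with the 32.4% of windows that hold at least 1, and the Lamb2, Nid1 and Sparc windows held 0. A CCAAT box (CCAAT or ATTGG) was found in the windows of Col4a1, Col4a2, Lamb1 and Nid1 and in 37.4% of all windows. The matches are a description of these letters.

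Col4a1 and Col4a2 lie head to head on chromosome 8 (chr8:11198423-11312889 and chr8:11312805-11449287), with annotated starts 21 bases apart on opposite strands, and their products assemble into 1 protomer. Col4a1 (101093_at) ran from 5617 to 6957 in controls with a median of 6061. Its TCDD arrays read 6999, 6695, 6023 and 6004 at 1.5 µg/kg, 6153, 6404, 5676 and 5741 at 3 µg/kg, and 5854, 5811, 6095 and 5042 at 6 µg/kg. All groups overlapped, with 1 array at 1.5 µg/kg above the controls and 1 at 6 µg/kg below them.

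The Col4a1 changes were 0.06, -0.04 and -0.11 on the log2 scale (smallest limma adjusted p of the 3, 0.657), and the interval at 6 µg/kg ran from -0.27 to 0.05. Col4a1 was the steadiest member: its SD within groups, 0.11 on the log2 scale, lay at percentile 3.01 of all tested probe sets, against 0.30 and percentile 74.1 for Hspg2.

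Col4a2 (101039_at) ran from 5048 to 6270 in controls with a median of 5541. The 1.5 µg/kg arrays read 5708, 6403, 5218 and 6649, those at 3 µg/kg 5963, 5199, 5167 and 5031, and those at 6 µg/kg 5645, 5333, 7177 and 6177. Again every dose overlapped the controls, and the highest reading was array 3 at 6 µg/kg. The changes were 0.08, -0.08 and 0.10 (smallest adjusted p 0.725), with intervals that together spanned -0.26 to 0.28.

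Among the laminins, Lama4 on 104587_at read 3231, 3424, 3122 and 3558 at 1.5 µg/kg, 3389, 3923, 3340 and 3085 at 3 µg/kg, and 3172, 2631, 2726 and 3174 at 6 µg/kg, beside controls of 2886 to 4394 with a median of 3015. At 6 µg/kg 2 of 4 arrays lay below every control, and the change was -0.20 (interval -0.43 to 0.04, limma adjusted p = 0.591). It was -0.37 against controls 1 to 4 (adjusted p = 0.0991) and -0.02 against controls 5 to 8 (adjusted p = 0.993). At 1.5 and 3 µg/kg the changes were -0.01 and 0.03.

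Lamb1 (chr12:31265146-31329644) encodes the laminin β1 chain and has 2 tested probe sets. On 101948_at the controls ran from 768 to 1032 with a median of 949, and the dose means were 828 ± 72.3, 847 ± 115 and 915 ± 176 (SD, n = 4 each). On 162263_f_at, whose suffix marks probes that may also match related sequences, the controls ran from 862 to 1230 with a median of 976, and the dose means were 908 ± 68.5, 882 ± 47.3 and 1048 ± 65.1 (SD, n = 4 each). The probe sets had the same sign at 1.5 µg/kg (-0.14 on each) and at 3 µg/kg (-0.12 and -0.18), and opposite signs at 6 µg/kg (-0.02 and 0.06). The smallest adjusted p of these was 0.557.

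Lamb2 (chr9:108479847-108490530), the β2 chain found at neuromuscular junctions and in vessel walls, ran from 391 to 659 in controls with a median of 527 (101359_at). Its dose means were 478 ± 88.3, 464 ± 57.7 and 580 ± 109 (SD, n = 4 each), which gave changes of -0.13, -0.16 and 0.14 (smallest limma adjusted p 0.739). The highest reading was 730 on array 2 at 6 µg/kg, and it was the only array of any dose above every control.

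Lamc1 (chr1:153218922-153332786) encodes the γ1 chain, the gamma chain shared by most laminins. Its only tested probe set was 161706_f_at, whose suffix again marks probes that may also match related sequences. On it the controls ran from 764 to 1024 with a median of 825. The arrays read 1016, 731, 890 and 720 at 1.5 µg/kg, 989, 1111, 1017 and 646 at 3 µg/kg, and 845, 748, 817 and 441 at 6 µg/kg. Below every control lay 2, 1 and 2 arrays at 1.5, 3 and 6 µg/kg, and array 4 at 6 µg/kg was the lowest of the series. The changes were -0.03, 0.12 and -0.28 (interval at 6 µg/kg -0.59 to 0.03, limma adjusted p = 0.578), and without array 4 of 6 µg/kg the last was -0.08.

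The second probe sets of Lama4 (161793_at) and Lamc1 (102404_at) reached the 40th percentile on 0 arrays and were left out of the fit. Their signals were at most 72.7 and 81.8 on any array, and their groups overlapped at every dose. An exact two-sided permutation test over all splits of the controls and the arrays of a dose gave p from 0.461 to 0.988 (adjusted p = 0.988 over 6 tests).

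**Figure D4:**
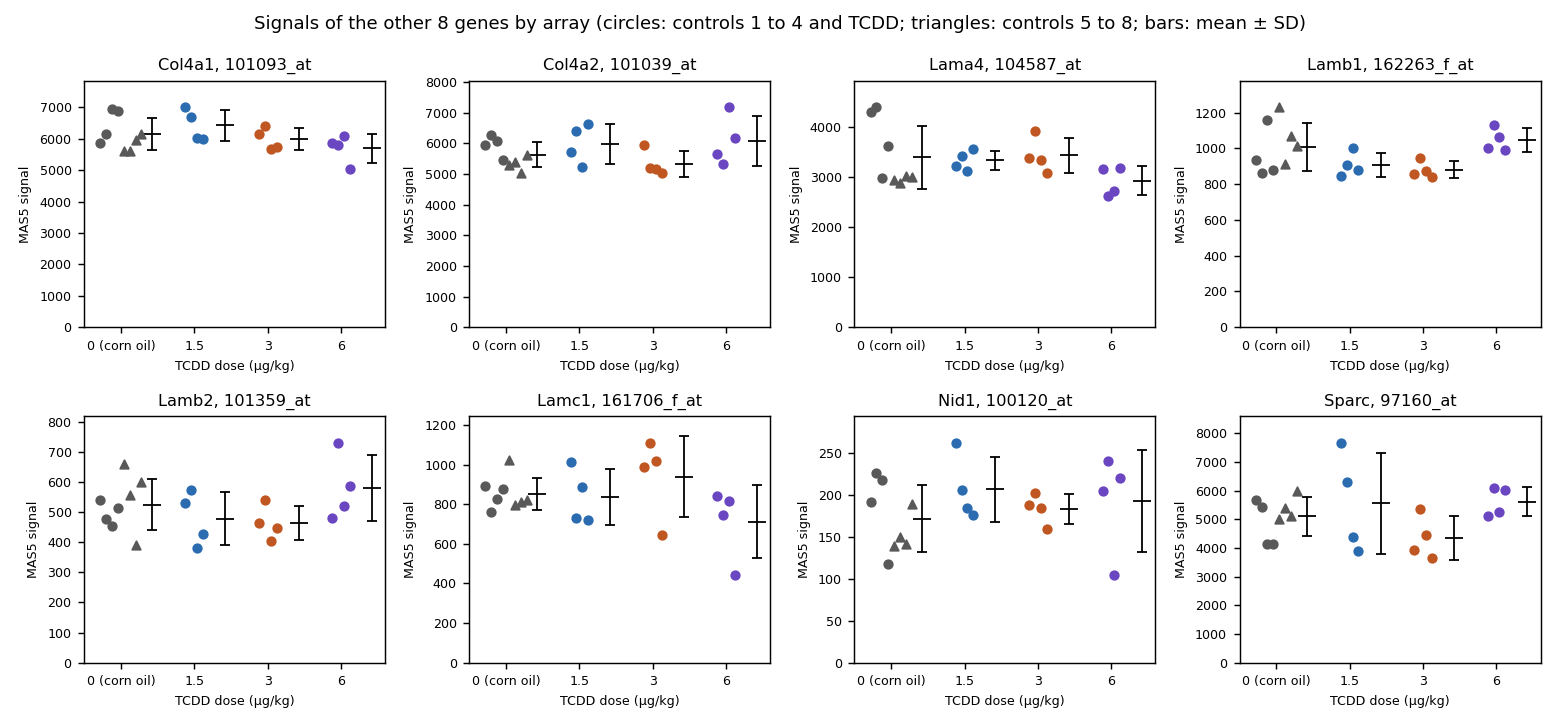
MAS5 signal on each of the 20 arrays by TCDD dose for the other 8 genes, 1 panel per gene with its own vertical axis from 0; for genes with several probe sets the brightest is shown, and bars give the mean ± SD. In all 8 panels every dose overlaps the controls.

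Nid1 (chr13:13437602-13512275, probe set 100120_at), the nidogen that links laminin γ1 to collagen IV and perlecan, varied by an SD within groups of 0.30, at percentile 72.0 of all tested probe sets. Controls ran from 118 to 226 with a median of 169. The arrays read 262, 205, 184 and 175 at 1.5 µg/kg, 188, 202, 184 and 159 at 3 µg/kg, and 204, 241, 104 and 220 at 6 µg/kg. The changes of 0.24, 0.10 and 0.12 were all positive but did not pass (smallest limma adjusted p 0.611), and the interval at 1.5 µg/kg, -0.13 to 0.61, was the only one of the other 9 members at that dose to reach past a 1.5-fold change.

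Sparc (chr11:55394159-55420080, probe set 97160_at), which binds collagen and is abundant in fibroblasts and endothelium, ran from 4130 to 5984 in controls with a median of 5273. The 1.5 µg/kg arrays read 7675, 6308, 4375 and 3891, so that 2 lay above every control and 1 below. The 3 µg/kg arrays read 3928, 5368, 4452 and 3661, 2 of them below every control, and the 6 µg/kg arrays 5116, 6113, 5245 and 6014, 2 of them above. The changes were 0.08, -0.24 and 0.14 (smallest adjusted p 0.781), and without array 1 of 1.5 µg/kg the first was -0.09.

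For the 9 tested probe sets other than Hspg2, the log2 intervals bound what these arrays could show. At 1.5 µg/kg 8 of 9 intervals lay within a 1.5-fold change in either direction, at 3 µg/kg 9 of 9 and at 6 µg/kg 8 of 9, where the exception was Lamc1. The lowest bound over the 3 doses was a log2 change of -0.59 and the highest 0.61.

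Partner genes were compared array by array, with 8 pairs fixed by their roles. The highest of the 8 correlations of log2 signals over 20 arrays was that of Hspg2 with Col4a1 (Pearson r = 0.48, permutation p = 0.0305, adjusted over the 8 pairs 0.244; Spearman rho = 0.46, permutation p = 0.0436, adjusted 0.349). It did not pass after adjustment, and r was 0.50 for deviations from the group means (permutation p = 0.0250, adjusted 0.200) and 0.36 without the 2 arrays of the most extreme Hspg2 signals. Col4a1 with Col4a2 gave r = 0.16 (permutation p = 0.511, adjusted 0.930) and rho = 0.32 (p = 0.164, adjusted 0.656), and r = 0.34 without the 2 arrays of most extreme Col4a1 signals. The other 6 pairs had r between -0.12 and 0.20 and adjusted p of at least 0.930. In the 8 controls alone, 0 of the 8 pairs had an adjusted permutation p under 0.05.

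The tested probe sets of other genes most like Hspg2 over the 20 arrays were those of Pias3 (r = 0.90), Atp6v0a1 (0.88), Zfp651 (0.88), Kmt5c (0.87) and Col6a2 (0.87), picked as the highest of 7321. Col6a2, a chain of the microfibrillar collagen VI of the interstitial matrix, had changes of 0.55, 0.36 and -0.03 at the 3 doses. Those most like Col4a1 were Kdr (0.88), Serpinh1 (0.86), Wnk1 (0.84), Mau2 (0.82) and Iqgap3 (0.82). Kdr is the VEGF receptor of endothelium, and Serpinh1 is the collagen chaperone HSP47. These values share the arrays and their scaling and are given as descriptions.

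Other genes of the basement membrane were followed as a list of 91, of which 55 genes with 74 probe sets were tested. At 1.5, 3 and 6 µg/kg 55, 45 and 31 of the 74 lay above controls, with medians of 0.10, 0.05 and -0.03, and 0 were called at any dose. Over all probe sets 51.9%, 51.2% and 49.7% lay above controls. Unadjusted p-values under 0.05 were held by 13, 10 and 7 of the 74, beside 12.6%, 5.72% and 9.15% of all probe sets, and the joint test called 0 of the 74.

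Among other chains and proteoglycans, 20 of 24 probe sets lay above controls at 1.5 µg/kg and 6 of 24 at 6 µg/kg, with 0 called at any dose. Col18a1, whose collagen XVIII is a basement membrane proteoglycan, had 0.18, -0.03 and -0.52 at the 3 doses (101881_g_at, limma adjusted p = 0.151 at 6 µg/kg), Col4a5 0.21, 0.13 and -0.44, Agrn (agrin) 0.33, 0.33 and -0.23, and Fbln2 (fibulin 2) 0.25, 0.26 and -0.02. None of these 4 passed at any dose. Here and in the lists below, a gene with several tested probe sets is given by the one of smallest joint p. This applies to Col18a1 (4 tested probe sets), Agrn (2), Itgb5 (2) and Plod3 (3), whose other probe sets are not shown.

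Receptors showed no common direction, with 11, 10 and 11 of 21 probe sets above controls and 0 called. Ddr1, a collagen receptor kinase, had 0.42, 0.11 and -0.14 (adjusted p = 0.169 at 1.5 µg/kg), Itgb4 0.75, 0.86 and -0.41 at a low control signal of 87.9, Sdc4 -0.26, -0.13 and 0.26, and Itgb5 -0.28, 0.08 and 0.04.

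Of the genes for collagen and heparan sulphate synthesis, 15, 13 and 7 of 18 probe sets lay above controls, with 0 called. Plod3, a lysyl hydroxylase of collagen, had 0.22, 0.22 and -0.19, Extl3, an enzyme of heparan sulphate chain synthesis, 0.25, 0.17 and -0.15, Lox, which cross-links collagen, 0.38, 0.29 and 0.10, and Serpinh1 0.15, 0.05 and -0.13. Of the turnover genes 9, 6 and 7 of 11 probe sets lay above controls, with 0 called, and Mmp14, a membrane-bound matrix protease, had 0.39, 0.32 and 0.10 (limma adjusted p = 0.191 at 1.5 µg/kg). Timp2 had 0.27, 0.05 and -0.12, Mmp11 0.09, -0.10 and 0.30, and Plat 0.16, -0.01 and -0.18.

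Markers of the cells that make or border basement membrane were read beside these values, since in whole hearts fewer cells of a type and less RNA per cell cannot be told apart. Endothelial markers had 8, 7 and 6 of 15 tested probe sets above controls. Summed signals, here and below, take in all probe sets of a list, tested or not. For the 17 endothelial ones the sum was 16983 to 21177 in controls, 17909 to 20961 at 1.5 µg/kg, 17059 to 18554 at 3 µg/kg and 16844 to 18679 at 6 µg/kg. Smooth muscle and pericyte markers had 7, 5 and 1 of 9 above controls, and cardiomyocyte markers 6, 1 and 10 of 12. Fibroblast and epicardial markers had 13, 14 and 13 of 16 above controls, with 4, 5 and 4 at an unadjusted p under 0.05, beside the same shares of all probe sets (12.6%, 5.72% and 9.15%). In each of these 4 lists 0 probe sets were called at any dose, and all groups overlapped the controls in the summed signal.

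Leukocyte markers had 11, 10 and 11 of 11 tested probe sets above controls with 0 called. The summed signal of all 16 probe sets of the list was higher on all 12 TCDD arrays (3102 to 3873) than on any control (2314 to 2958). How often such a separation occurs over all probe sets or in other lists of this size was not computed. Of the 11 tested probe sets, 2, 5 and 7 had an unadjusted p under 0.05 (limma), all of them higher, beside 12.6%, 5.72% and 9.15% of all probe sets. The 3 probe sets of Ptprc, the pan-leukocyte marker, were near background at 54.9 or less on every array. Lung epithelial markers had 3, 3 and 2 of 3 tested probe sets above controls with 0 called, and varied widely within every group. The summed signal of all 4 lung probe sets ran from 224 to 2801 in controls (median 989), 590 to 3808 at 1.5 µg/kg (median 1731), 325 to 4541 at 3 µg/kg (median 3120) and 325 to 3826 at 6 µg/kg (median 755). With the lung marker score, which rests on 3 probe sets, as a covariate the Hspg2 change at 1.5 µg/kg was 0.82 (limma adjusted p = 0.0605). Without the covariate it was 0.83 (limma adjusted p = 0.0320).

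Liver markers had 4, 3 and 3 of 4 probe sets above controls, red cell markers 2, 1 and 2 of 2, and markers of parietal endoderm, a list that holds Sparc itself and also Plat, 5, 1 and 3 of 6, with 0 called in each. Beyond the lung score fit above, whether lung, leukocyte, fibroblast or liver cells had a part in the Hspg2 values was not tested. Without the 4 arrays of highest 3′-to-middle Actb ratio (controls 1, 2 and 6 and array 4 of 6 µg/kg), an alternative chosen after seeing the data, the Hspg2 change at 1.5 µg/kg was 0.83 (limma adjusted p = 0.0314).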

How the data were processed

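The values were the authors' deposited MAS5 signals, a linear intensity per probe set, in 1 table of 12488 probe sets by 20 arrays. The MAS5 version and its settings are not given in the sources used here, and the deposited signals had 2% trimmed means of 500.3 on every array. The 66 AFFX control probe sets were set aside, signals were rescaled per array so that this mean was 500, and log2(signal + 32) was tested, so that changes of dim probe sets are understated. Differences were fitted in 1 model over all arrays with limma 3.58.1 (R 4.3.3, lmFit, contrasts.fit, eBayes with an intensity trend, two-sided), with Benjamini-Hochberg adjustment over the 8097 kept probe sets within a comparison and a threshold of 0.05. Comparisons with either set of 4 controls used 16 arrays. Correlations used permutation tests with 100000 resamples over 20 arrays and exact pairings over 8 (NumPy 2.4.6, SciPy 1.17.1).

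Symbols came from the platform annotation, which gives 1 symbol to 10833 probe sets, several to 396 and none to 1193, and sequences and positions from RefSeq tables of GRCm38.p6. Array number limits the precision. The fit was also run on simulated data with independent normal noise and a uniform control group, which lack the difference between the control sets. Of 200 probe sets shifted 1.8-fold, 82.5%, 82.5% and 84% were called at 1.5, 3 and 6 µg/kg, with 8, 5 and 6 false calls. These 200 were shifted at all 3 doses, while 17, 2 and 6 probe sets were called against controls in the real data. The adjustment is more lenient with more true changes, so these shares do not give the chance of a call in the real comparisons. Named genes were all member probe sets, up to 4 genes per class of the other list by the smallest joint p, the 5 probe sets most correlated with Hspg2 and with Col4a1, and Cyp1a1 and Cyp1b1. The members and lists were chosen with earlier results of these data known. Scaling, pseudocount, filter, control set, covariates, variance model, dose scale and single arrays were varied.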

Additional observations from a re-analysis of the deposited data

How the results depend on the processing

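The count of 1 called member at 1.5 µg/kg, Hspg2, was 0 with no filter on dim probe sets (adjusted p = 0.0550), controls 1 to 4 alone (0.181), the lung score as a covariate (0.0605), no intensity trend (0.0695) and only the groups compared (0.0907), and 0 to 1 when single arrays were left out. It was 0 without control 3, 5, 6 or 7 or without array 1 or 2 of that dose (adjusted p = 0.0521 to 0.311). The count for 6 against 1.5 µg/kg was 1, Hspg2, in place of 0 with controls 1 to 4 alone (0.0297), controls 5 to 8 alone (0.0393) and array weights (0.0450), and 0 to 1 over single arrays, being 1 without control 6 or array 4 of 1.5 µg/kg. The joint count was 1 in place of 0 with quantile scaling, controls 5 to 8 alone, array weights and without the 4 arrays of highest Actb ratio, and 0 to 1 over single arrays, being 1 without control 4 or array 4 of 1.5 µg/kg. The count for the line over dose was 1 in place of 0 in the 12 TCDD arrays alone, with a slope of -0.17 for Hspg2. The causes were not tested. No other count of members called changed under any alternative run.

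With the replicate block, in which controls 5 to 8 have numbers of their own and drop out, 0 members were called at 1.5 µg/kg (Hspg2 0.68, adjusted p = 0.201) and 1 for 6 against 1.5 µg/kg (0.0382). Same-numbered arrays did not deviate together (24 pairs, r from -0.22 to 0.21, median -0.01, 4 over 0.1), so they were taken to share only a number.

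Apart from that slope, signs turned only for changes near 0, none of them called. With controls 1 to 4 alone, and equally with the replicate block, the changes became -0.0074 for Col4a1 at 1.5 µg/kg, -0.0064 for Nid1 and -0.14 for Lama4 at 3 µg/kg, and -0.11 for Hspg2 and 0.042 for Lamb1 (101948_at) at 6 µg/kg. With controls 5 to 8 alone they became 0.17 for Lama4 and -0.0040 for Sparc at 1.5 µg/kg, 0.036 for Col4a1 at 3 µg/kg and -0.0073 for Lamb1 (162263_f_at) at 6 µg/kg. Lamc1 at 1.5 µg/kg became 0.061 with the Actb 3′-to-5′ ratio as a covariate. Lama4 at 1.5 µg/kg became 0.040 with the lung score, 0.047 with array weights, 0.10 without the 4 Actb arrays and 0.014 as the mean of its probe sets, which gave -0.072 at 3 µg/kg. Lamb1 (101948_at) at 6 µg/kg became 0.00024 with quantile scaling and, as the mean of its probe sets, 0.021. Leaving out single arrays gave ranges across 0 of -0.039 to 0.048 for Lama4, -0.12 to 0.035 for Lamc1 and -0.093 to 0.23 for Sparc at 1.5 µg/kg, -0.034 to 0.087 for Lama4 at 3 µg/kg, and -0.079 to 0.15 for Hspg2 and -0.12 to 0.095 for Lamb1 (101948_at) at 6 µg/kg.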
